A study of Mus musculus with 6 samples.

Results

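Entry into mitosis and the passage through it are driven by a set of genes whose transcripts build up in G2 phase and fall away after division. The set followed here holds 52 of them, chosen by gene symbol with no measured value in the rule, out of the 23420 mouse gene symbols counted. All 52 were in the table and all 52 passed the filter on low counts, among 11608 genes tested. The members cover the mitotic cyclins and Cdk1, the mitotic kinases, the ubiquitin enzymes that end mitosis, the kinetochore, the spindle, cytokinesis, chromosome structure and the nuclear envelope.

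The cells were eEnd2, a line of endothelial cells from the mouse embryo, stably transfected with a chimera of human Integrin-β1A carrying GFP in its extracellular part. In β1-WT-GFP cells the chimera had the wildtype sequence, and in β1-K794Q-GFP cells a glutamine stood at Lys794 as a mimic of the acetylated lysine. Both chimeras were driven by a small piece of the human β-actin promoter next to a chicken lysozyme matrix attachment region, so that they were made constitutively, beside the mouse integrins that the cells still expressed. GFP-positive cells were sorted, grown to confluence in dishes without any treatment, and their total RNA, cleared of ribosomal RNA, was sequenced in 3 cultures per chimera, named here WT A to WT C and K794Q A to K794Q C. The sources describe different cultures of each kind of sorted cells and no separate transfections, so the p-values measure the spread between these cultures. The labels mention cells sorted for low and for high GFP without naming which culture came from which. How many cells each dish held is not given in the sources used here.

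Cyclin B with Cdk1 is the kinase that brings a cell into mitosis. Plk1 and the Aurora kinases drive centrosome maturation, spindle assembly and chromosome attachment, and Cdc20 activates the anaphase-promoting complex (APC/C), the ubiquitin ligase that has cyclin B and securin destroyed. Many of these genes are held silent in resting cells by the DREAM complex and switched on in cycling cells by B-Myb and FoxM1, largely through a promoter element called CHR (cell cycle genes homology region) and through CCAAT boxes bound by NF-Y. In a confluent endothelial layer most cells normally leave the cycle, and the level of such genes in bulk RNA then follows how many cells are dividing. In these bulk samples, fewer cells in G2 and M phase and less of each transcript per cell cannot be told apart.

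The promoters of the members carried the elements that this background names. RefSeq promoter windows (GRCm38.p6, from 250 bases before to 50 bases after the start of transcription) were found for 45 of the 52 members. The 7 members Aurkb, Ccna2, Cdc25c, Cdca2, Dlgap5, Smc4 and Tpx2 have no entry in the table used. The CHR element, searched as TTTGAA or TTCGAA on both strands, was present in 35 of the 45 members, that is 77.8%, against 15.9% of the 8601 tested genes with a window. The CCAAT box, searched as CCAAT on both strands, was also present in 35 of 45 members (77.8%), against 43.5% of the tested genes. At least 2 CCAAT boxes stood in the windows of 62.2% of the members and of 17.4% of the tested genes. Both elements in the same window were found for 64.4% of the members and 6.76% of the tested genes. The E2F letters TTTCCCGC or TTTGGCGC, on both strands, were found in 4.44% of the members and 3.71% of the tested genes. These are matches of letters, described without a test.

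The following 4 stretches, from 120 bases before to 10 bases after the start, show this arrangement in genes of mitotic entry and exit. They belong to Cdk1, to the B-type cyclin Ccnb2, to Cdc20 and to Ube2c, the E2 enzyme that works with the APC/C. Capitals mark the CHR and CCAAT letters, read 5′ to 3′ along the gene's strand. A CHR on the other strand reads TTCAAA and a CCAAT box there reads ATTGG.
Cdk1 (chr10:69352903-69353032, minus strand): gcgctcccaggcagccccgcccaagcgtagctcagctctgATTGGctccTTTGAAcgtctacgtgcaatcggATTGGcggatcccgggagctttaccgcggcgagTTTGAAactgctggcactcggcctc
Ccnb2 (chr9:70421545-70421674, minus strand): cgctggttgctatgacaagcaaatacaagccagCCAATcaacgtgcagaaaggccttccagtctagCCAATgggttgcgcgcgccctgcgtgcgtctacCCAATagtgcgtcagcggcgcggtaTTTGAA
Cdc20 (chr4:118437334-118437463, minus strand): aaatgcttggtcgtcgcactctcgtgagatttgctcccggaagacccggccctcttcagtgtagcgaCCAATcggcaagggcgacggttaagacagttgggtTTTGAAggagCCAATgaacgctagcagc
Ube2c (chr2:164769809-164769938, plus strand): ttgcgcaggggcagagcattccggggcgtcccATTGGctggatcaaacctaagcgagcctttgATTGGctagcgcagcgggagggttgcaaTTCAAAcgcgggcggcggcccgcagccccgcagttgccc
In Cdk1, Cdc20 and Ube2c a CHR stands in the last bases before the start with CCAAT boxes around or upstream of it. In Ccnb2 a CHR lies just after the start, behind 3 CCAAT boxes. Another Ccnb2 CHR, at position -167, lies in the window but outside the stretch shown.

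The same stretches are shown for the called members Gtse1 and Psrc1 and for Ckap2 and Gas2l3, chosen after their values were seen, whose levels are described at length further on. Where RefSeq lists several starts, the most upstream is given. For Gtse1 and Psrc1 the window of that start did not end in the opening of a GENCODE transcript, whereas the window of the downstream start did. Counted from the downstream start, the CHR of Psrc1 lies at position -30. The window of the downstream Gtse1 start holds 1 CCAAT box, at position -241. Gtse1 and Psrc1 encode microtubule-binding proteins, Ckap2 a spindle protein, and Gas2l3 a cytoskeletal protein that acts in cytokinesis.
Gtse1 (chr15:85859587-85859716, plus strand): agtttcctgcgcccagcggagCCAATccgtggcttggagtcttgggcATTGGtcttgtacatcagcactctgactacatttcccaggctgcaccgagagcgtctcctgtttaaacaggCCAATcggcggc
Psrc1 (chr3:108383684-108383813, plus strand): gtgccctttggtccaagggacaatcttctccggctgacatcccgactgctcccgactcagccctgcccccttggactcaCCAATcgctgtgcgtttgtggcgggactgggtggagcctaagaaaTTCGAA
Ckap2 (chr8:22185810-22185939, minus strand): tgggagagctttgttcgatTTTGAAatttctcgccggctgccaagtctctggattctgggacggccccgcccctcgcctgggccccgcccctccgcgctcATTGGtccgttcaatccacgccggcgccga
Gas2l3 (chr10:89443958-89444087, minus strand): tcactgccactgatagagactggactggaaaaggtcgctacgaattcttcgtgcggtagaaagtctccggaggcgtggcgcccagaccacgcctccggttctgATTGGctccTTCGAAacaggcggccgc
Psrc1, Ckap2 and Gas2l3 hold both elements. Gtse1 holds CCAAT boxes and no CHR match in either of its windows. The 5 members Birc5, G2e3, Nuf2, Nusap1 and Tacc3 had neither element in the window.

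The cultures were compared as normalised counts, that is CPM, the counts scaled to a common library size after TMM correction. Totals ran from 9589826 to 15287191 counts per culture. At this depth the lowest member count in a culture was 17, and the highest 9240. The line was endothelial by its markers: the 12 endothelial genes listed for this check summed to between 8035 and 9133 CPM in β1-WT-GFP cultures and between 6673 and 12497 CPM in β1-K794Q-GFP cultures. Among them Cldn5, a tight junction gene, stood at 267, 252 and 4.74 CPM in WT A, WT B and WT C and at 17.5, 0 and 24.3 CPM in K794Q A, K794Q B and K794Q C, and Vwf did not exceed 2.41 CPM. WT C stood apart from A and B. It was the only culture in which the 10 fibroblast and mural genes exceeded 4 CPM in sum (30.7 CPM against 0.787 and 1.30 in cultures A and B), with Pdgfra at 16.4 CPM, while Dcn, Lum and Rgs5 had 0 counts in every culture. The 5 epithelial markers summed to at most 0.592 CPM, and the 5 leukocyte markers to at most 103 CPM, nearly all of it Cd68.

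The members moved together from culture to culture, and most of that movement lay within the groups. In WT C the members stood at a median of 3.24 times the mean of cultures A and B, from 1.30 times for G2e3 to 6.45 times for Anln. Culture C was above both A and B for 52 of the 52 members, and for 5246 of all 11608 tested genes. It was at least 2-fold above their mean for 44 members, against 12.3% of all tested genes. The median fold of culture C over A and B across all tested genes was 1.00. Cultures A and B lay within 1.5-fold of each other for 51 members, Kif2c being the exception, and for 10890 of all 11608 tested genes. The β1-K794Q-GFP cultures were spread as well. Relative to that mean of WT A and WT B, the members' median was 1.62-fold in K794Q A, 1.13-fold in B and 2.59-fold in C. Culture C was the highest of the β1-K794Q-GFP cultures for 50 members, with Ckap5 and Gas2l3 as the others, and culture B was the lowest for 43. Among all 11608 tested genes these counts were 3973 and 4816.

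**Figure D1:**
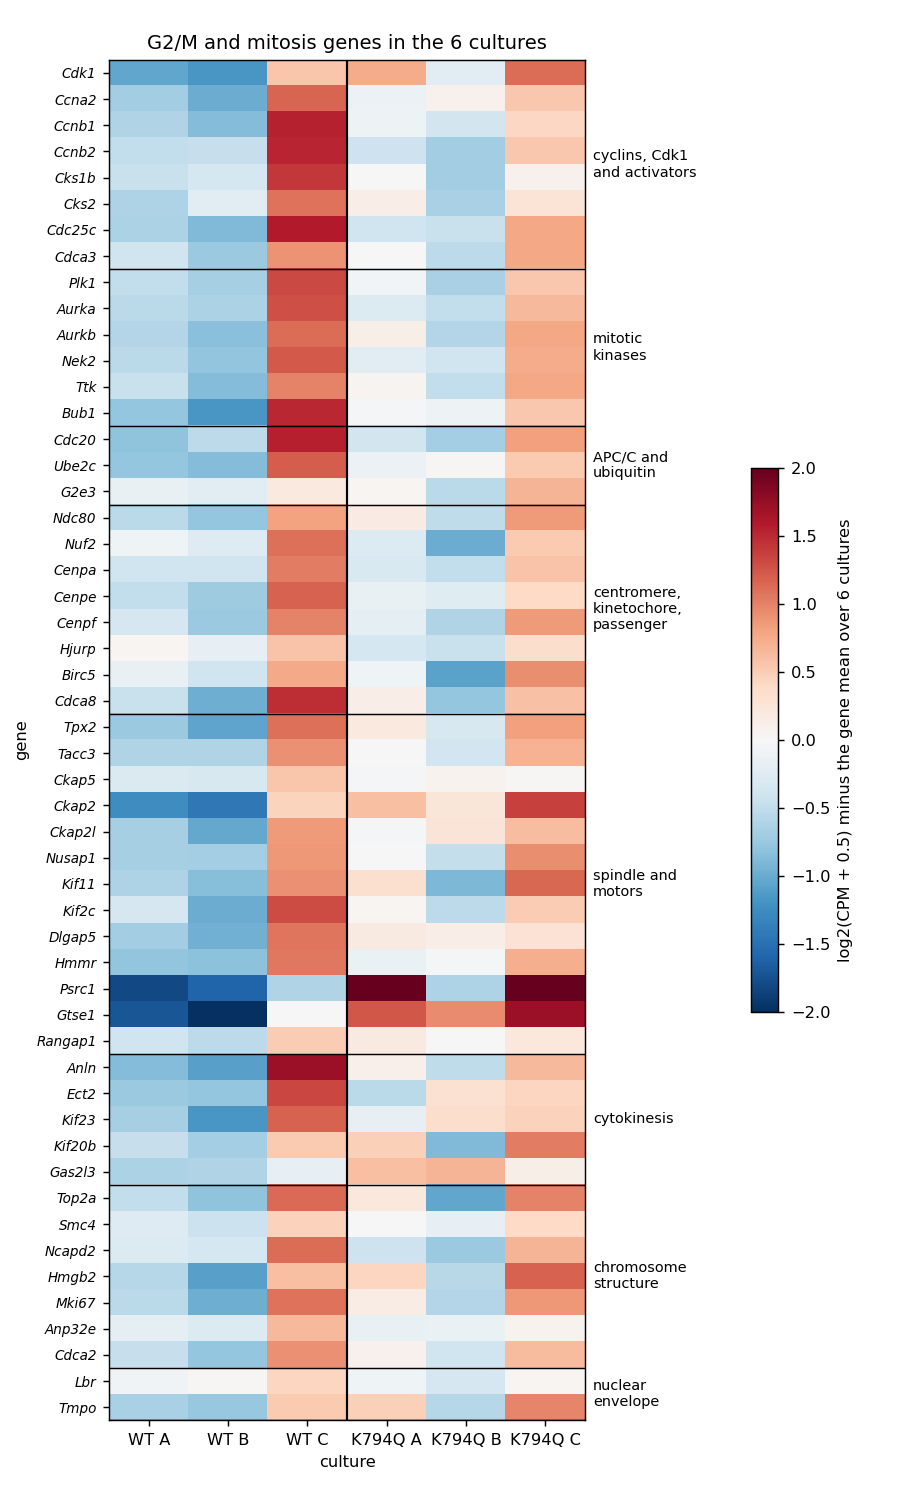
Level of each of the 52 members (rows, grouped by role) in each culture (columns), drawn as log2(CPM + 0.5) minus that gene's mean over the 6 cultures; red is above and blue below the mean, and the vertical line parts the groups. WT C and K794Q C are red for most genes and WT A and WT B blue, whereas Gas2l3 and Gtse1 are higher in every β1-K794Q-GFP culture than in any β1-WT-GFP culture.

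Averaged over the members, the centred log2 level was -0.57, -0.76 and 0.93 in WT A, WT B and WT C, and 0.08, -0.36 and 0.68 in K794Q A, K794Q B and K794Q C. The groups therefore overlapped: the order of the 6 cultures began with WT C and ended with WT B. The mean of the β1-K794Q-GFP group exceeded that of the β1-WT-GFP group by 0.27 on this scale, less than the gap between WT C and either of the other cultures of its group. WT C held the highest value of all 6 cultures for 39 members and K794Q C for 12 (3018 and 1936 of all 11608 tested genes). The lowest value was in WT B for 36 members and in K794Q B for 13 (1315 and 2579 of all tested genes). The fibroblast and mural markers given above were raised in sum in WT C, the β1-WT-GFP culture in which the members were highest. Of these 10 markers, 6 were above both WT A and WT B there. Col1a2 had 0 CPM in WT C and its highest level, 3.16 CPM, in K794Q B. The part of these markers in the result was not tested. In K794Q A, K794Q B and K794Q C these markers summed to 3.56, 3.75 and 2.84 CPM.

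To ask whether the acetylation mimic went with another level of mitotic genes, the groups were compared with edgeR's quasi-likelihood F-test over all genes, and a gene was called when it differed at least 2-fold with p up to 0.05 before adjustment. Of the 52 members, 2 were called, both higher in β1-K794Q-GFP cells, namely Gtse1 and Psrc1. Over all tested genes 5.19% were called, and 3.48% were called as higher. Without the fold threshold, at the same p, there were 3 members (the third being Gas2l3), against 10.2% of all genes. At a Benjamini-Hochberg adjusted p of at most 0.05, 0 members passed, against 0.181% of all genes, the smallest adjusted p of a member being 0.207; DESeq2 gave 3 members at that threshold (4.15% of the genes it gave an adjusted p) and edgeR's likelihood ratio test 2 (2.74% of all genes). The median log2 fold change of the members was 0.03, from -0.65 for Cks1b to 3.27 for Psrc1, beside -0.02 over all tested genes. It was positive for 27 members and negative for 25, and 41 members were under 0.5 in size. Standard errors ran from 0.20 to 0.87, and for 43 members the fold change was smaller than its own standard error.

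The comparison depended on WT C. As this culture was above WT A and WT B for all 52 members, leaving it out was bound to raise their fold changes. The range over all fits with a culture left out is given in the closing section. In the fit without it the median log2 fold change of the members was 0.86 (0.04 over all genes tested in that fit), 50 members were higher in β1-K794Q-GFP cells, and Hjurp and Lbr alone were lower. The direction changed for 23 members. In that fit 14 members were called, all higher (5.99% of all genes were called as higher), and for 18 the unadjusted p did not exceed 0.05 (16.6% of all genes). None of the 14 had an adjusted p of at most 0.05, the smallest being 0.0512 for Gtse1. The 12 that were not called with all 6 cultures were Cdk1, Ccna2, Bub1, Ube2c, Tpx2, Ckap2, Ckap2l, Dlgap5, Hmmr, Anln, Kif23 and Gas2l3. Counted without a model, all 3 β1-K794Q-GFP cultures lay above WT A and WT B for 30 members (18.5% of all genes did so). Against all 3 β1-WT-GFP cultures this held for 2 members, Gtse1 and Gas2l3 (8.45% of all genes), and the reverse order held for 0 members (8.12% of all genes).

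**Figure D2:**
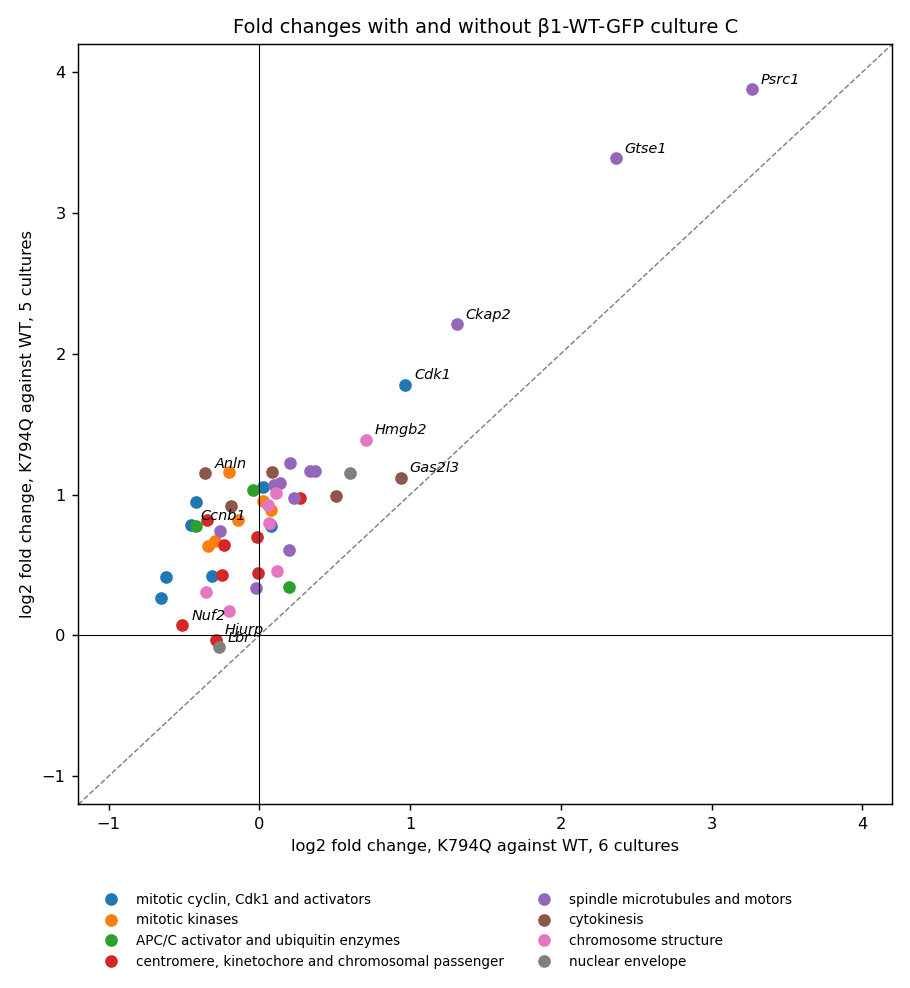
Log2 fold change of each member, β1-K794Q-GFP against β1-WT-GFP, with all 6 cultures (horizontal axis) and in the fit of 5 cultures without WT C (vertical axis); colours give the role and the dashed line marks equal values. All 52 points lie above the line, the median moves from 0.03 to 0.86, and Gtse1 and Psrc1 lie farthest to the right. WT C was above WT A and WT B for every member, so the upward shift follows from leaving it out.

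The cyclins, Cdk1 and their activators showed the culture pattern plainly. Ccnb1, the cyclin that turns Cdk1 into the mitotic kinase, stood at 13.4, 11.1 and 61.1 CPM in WT A, WT B and WT C and at 19.2, 15.9 and 27.6 CPM in K794Q A, K794Q B and K794Q C. Its β1-K794Q-GFP values fell between those of the lower and the highest β1-WT-GFP cultures, and the log2 fold change was -0.45 (SE 0.69, adjusted p 0.903 by edgeR's quasi-likelihood test). Ccnb2 read 17.8, 18.2 and 73.5 CPM against 19.0, 15.5 and 36.9 CPM (log2 fold change -0.62, SE 0.66). Cdca3, a trigger of mitotic entry, read 12.4, 9.70 and 31.4 CPM against 16.4, 11.3 and 28.7 CPM. Cdc25c, the phosphatase that activates Cdk1, exceeded 10 CPM only in the C cultures (18.9 CPM in β1-WT-GFP and 10.5 CPM in β1-K794Q-GFP cells). Cdk1 itself differed from its cyclins. It stood at 28.2, 25.7 and 86.4 CPM in β1-WT-GFP and at 98.0, 50.3 and 127 CPM in β1-K794Q-GFP cells, so that 2 of the 3 β1-K794Q-GFP cultures exceeded every β1-WT-GFP culture. The log2 fold change was 0.97 (SE 0.57), with an adjusted p of 0.671. The Cdk1-binding proteins Cks1b and Cks2 had negative fold changes. Over the 8 genes the median was -0.37, and 0.78 without WT C, where all 8 were higher.

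The kinases and the APC/C genes had their peak in WT C. Plk1 was at 16.9, 15 and 60.9 CPM against 23.2, 15.2 and 35.1 CPM in β1-K794Q-GFP cells (log2 fold change -0.34, SE 0.62, adjusted p 0.922). All 6 kinases (Plk1, Aurka, Aurkb, Nek2, Ttk and the checkpoint kinase Bub1) were highest in that culture and lowest in WT B. Bub1, which guards against early anaphase, was at 15.7, 11.9 and 77.8 CPM against 26.8, 25.4 and 39.8 CPM, and Nek2, a kinase of centrosome separation, at 15.8, 13.3 and 55.2 CPM against 19.8, 17.6 and 39.2 CPM (log2 fold change -0.14, SE 0.63). The 6 folds of culture C over A and B ran from 3.20 for Ttk to 5.63 for Bub1. Cdc20 read 15.1, 18.5 and 80.6 CPM against 20.8, 16.7 and 48.1 CPM (log2 fold change -0.42, SE 0.75, adjusted p 0.918). Ube2c too was highest in that culture, at 40.0 CPM, whereas G2e3, a ubiquitin ligase named for its expression in G2, was highest in K794Q C, with 58.4, 55.9 and 74.3 CPM against 66.9, 44.7 and 105 CPM.

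The 8 genes of the centromere, the kinetochore and the chromosomal passenger complex included 7 with negative fold changes, and their median was -0.24. Cenpf, a large kinetochore protein, was at 63.3, 47.6 and 159 CPM in β1-WT-GFP and at 70.8, 52.5 and 145 CPM in β1-K794Q-GFP cells, so that the groups covered nearly the same range (log2 fold change -0.014, SE 0.57). Birc5 (survivin), the passenger subunit that brings Aurora B to centromeres, read 22.0, 18.5 and 41.9 CPM against 23.1, 11.4 and 47.4 CPM. Cdca8 (borealin), another passenger subunit, read 11.7, 7.998 and 45.8 CPM against 17.8, 9.28 and 24.6 CPM. Ndc80 and Nuf2 are partners in the complex that grips microtubules, and they differed in sign. Ndc80 was at 10.9, 9.20 and 28.6 CPM against 18.2, 11.3 and 29.4 CPM, and Nuf2 at 27.8, 24.7 and 64.3 CPM against 24.5, 14.6 and 42.9 CPM. The 2 groups overlapped for both genes. Cenpa, the histone variant that marks centromeres, read 12.2, 12.2 and 33.4 CPM against 13.1, 11.3 and 24.3 CPM, and Cenpe, the kinetochore motor, 34.8, 29.7 and 112 CPM against 44.3, 41.4 and 64.3 CPM. Among these genes culture C stood out least for Hjurp, the chaperone that loads Cenpa, with 14.7, 12.6 and 21.3 CPM against 11.1, 10.4 and 18.3 CPM.

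With all 6 cultures the 13 spindle genes had the highest median of the 8 roles, 0.20, and 11 of them were positive. Without WT C their median was 1.08, below the 1.12 of the cytokinesis genes. They hold both called members. Tpx2, which activates Aurora A on the spindle, was at 38.1, 30.6 and 138 CPM against 73.1, 51.2 and 114 CPM. Kif11, the motor that pushes the poles apart, was at 33.5, 28.5 and 97.8 CPM against 64.5, 27.5 and 115 CPM. The β1-K794Q-GFP values of Tpx2 lay within the β1-WT-GFP range. Those of Kif11 passed that range at both ends, with the top value in K794Q C. Hmmr, a microtubule-binding protein of the spindle poles, was at 18.6, 18.2 and 68.2 CPM against 29.8, 31.7 and 54.3 CPM, and Ckap2l, a relative of Ckap2, at 18.5, 14.3 and 53.7 CPM against 28.6, 35.3 and 45.7 CPM. In both genes all β1-K794Q-GFP cultures stood above WT A and WT B and below WT C. Dlgap5, a spindle assembly factor, did likewise, at 13.5, 11.2 and 47.0 CPM against 25.1, 24.5 and 27.3 CPM. The depolymerase Kif2c was at 11.55, 7.20 and 37.0 CPM against 15.2, 10.1 and 21.2 CPM. Tacc3, which stabilises the fibres that hold the kinetochores, was at 20.03, 19.99 and 57.7 CPM against 30.2, 23.2 and 49.5 CPM. Nusap1, a microtubule-bundling protein, was at 21.0, 20.7 and 61.7 CPM against 33.7, 24.0 and 64.0 CPM, with its top value in K794Q C. Rangap1, which keeps the Ran gradient and is needed outside mitosis too, was at 62.5, 57.1 and 117 CPM against 93.3, 82.7 and 94.9 CPM. Ckap5, a microtubule polymerase that also works outside mitosis, varied least among the spindle genes, from 135 to 248 CPM.

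Gtse1 was the only called member whose groups did not overlap. It stood at 6.21, 4.30 and 21.2 CPM in WT A, WT B and WT C and at 51.5, 41.7 and 71.0 CPM in K794Q A, K794Q B and K794Q C. Every β1-K794Q-GFP culture lay above every β1-WT-GFP culture, and within each group culture C was again the highest and B the lowest. The log2 fold change was 2.36 (SE 0.64, adjusted p 0.252), it was called in 6 of 6 fits with a culture removed, with values from 1.99 to 3.39, and the two-sided exact permutation test over cultures gave p = 0.1, the smallest that 3 against 3 allow. Gtse1 is known as a gene that p53 induces and whose protein in turn restrains p53 in G2.

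Psrc1, also known as a p53-inducible gene, showed the largest fold change among the members. It stood at 1.49, 1.80 and 4.11 CPM in β1-WT-GFP cells and at 33.5, 4.05 and 34.6 CPM in β1-K794Q-GFP cells. Cultures A and C of the mutant were far above all others, while culture B overlapped with WT C. The log2 fold change was 3.27 (SE 0.87, adjusted p 0.251), and the call held in 6 of 6 fits with a culture removed. Ckap2 resembled Gtse1 in order but not in separation. Its values were 12.2, 10.6 and 40.5 CPM against 45.3, 35.1 and 77.0 CPM, with K794Q B below WT C. Its log2 fold change of 1.31 (SE 0.60) had an unadjusted p of 0.0687 by edgeR's test, so it was not called.

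**Figure D3:**
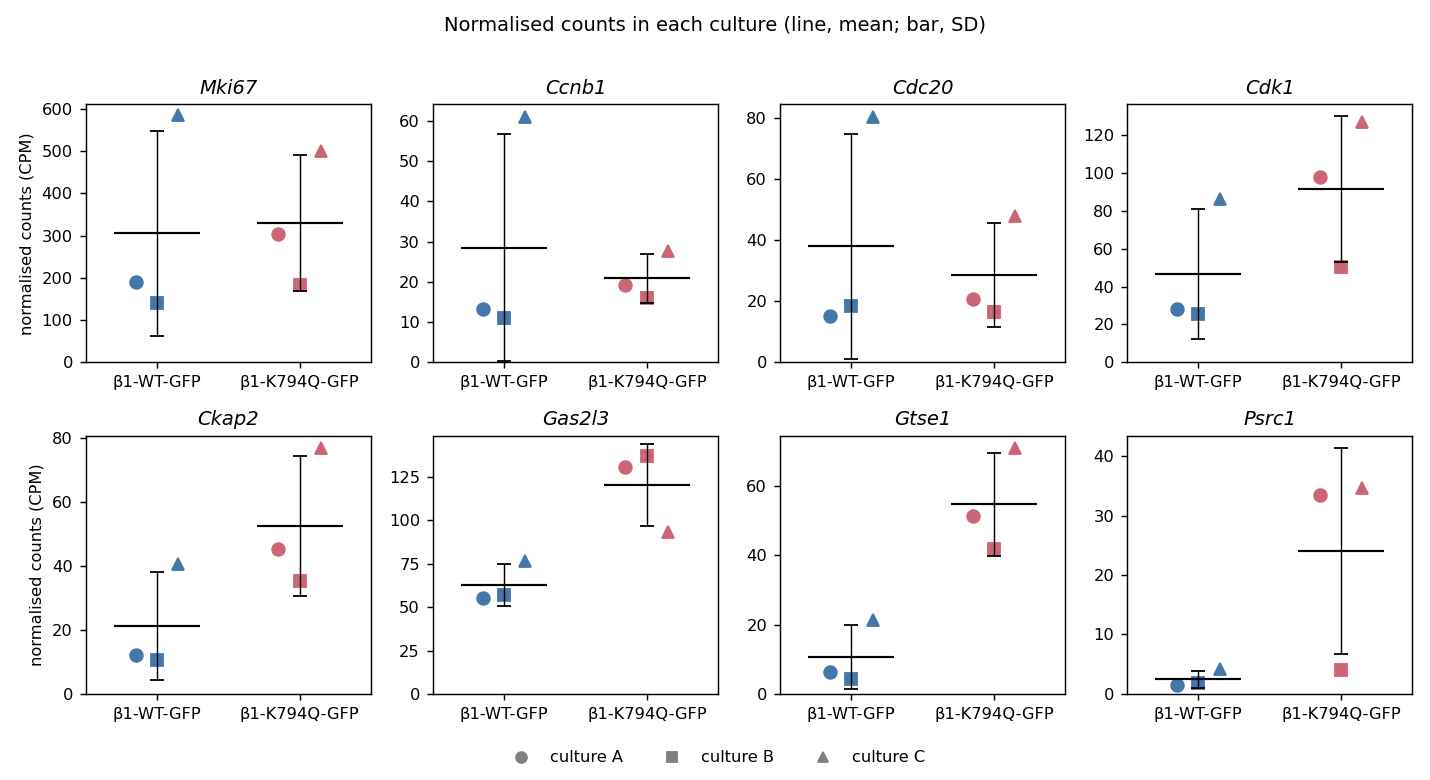
Normalised counts (CPM, vertical axes from 0) of 8 members in each culture; the symbol shape gives the culture letter, the horizontal line the group mean and the bar 1 SD (n = 3 cultures). Mki67, Ccnb1 and Cdc20 are highest in WT C, and for Gas2l3 and Gtse1 every β1-K794Q-GFP culture lies above every β1-WT-GFP culture.

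Among the cytokinesis genes, Anln, an actin- and septin-binding protein of the contractile ring, had the largest fold of WT C over A and B, at 46.0, 39.2 and 275 CPM in β1-WT-GFP and 90.0, 59.0 and 132 CPM in β1-K794Q-GFP cells. Ect2, the exchange factor that activates RhoA at the cell equator, and Kif23, the motor of the centralspindlin complex, were also highest in WT C. Kif20b, another mitotic kinesin, was at 35.4, 30.2 and 70.3 CPM against 68.1, 26.2 and 99.2 CPM, highest in K794Q C (log2 fold change 0.51, SE 0.54). Gas2l3 was the only member with its lowest β1-K794Q-GFP value in culture C. It stood at 55.0, 56.8 and 76.9 CPM in β1-WT-GFP and at 131, 137 and 93.6 CPM in β1-K794Q-GFP cells. The groups did not overlap. The log2 fold change was 0.94 (SE 0.23, adjusted p 0.207 by edgeR's test), just under the 2-fold threshold. The exact permutation p was 0.1.

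The genes of chromosome structure followed the general pattern. Top2a, the topoisomerase that untangles sister chromatids, had the highest level of the members per length of exon, with a mean of 65.0 CPM per kb in β1-WT-GFP cells, whereas Psrc1 had the lowest, 1.42 CPM per kb. Top2a was at 207, 167 and 643 CPM against 337, 143 and 581 CPM (log2 fold change 0.06, SE 0.69, adjusted p 0.987 by edgeR's test). Mki67, which encodes the proliferation marker Ki-67, was at 190, 141 and 585 CPM against 304, 184 and 501 CPM (log2 fold change 0.11, SE 0.63, adjusted p 0.976). For both genes a single β1-WT-GFP culture held the top value and the rest of both groups was interleaved. Ncapd2, a condensin subunit, was at 80.0, 75.9 and 211 CPM against 72.8, 57.9 and 156 CPM. Smc4, the ATPase subunit of condensin, was at 117, 104 and 195 CPM against 141, 126 and 185 CPM. Cdca2, which brings a phosphatase to mitotic chromatin, was at 18.5, 14.9 and 49.2 CPM against 27.2, 19.4 and 39.99 CPM. Anp32e, a chaperone of the histone H2A.Z, was at 70.2, 65.3 and 125 CPM against 71.6, 72.4 and 83.2 CPM. All 3 were highest in WT C. Hmgb2, a chromatin protein, read 9.19, 6.30 and 21.4 CPM against 18.9, 9.28 and 32.2 CPM, with a log2 fold change of 0.71 (SE 0.61). The nuclear envelope genes parted ways. Lbr, the lamin B receptor, was nearly level, from 75.5 to 129 CPM. Tmpo, which encodes the LAP2 proteins, followed the cultures, at 148, 138 and 335 CPM against 324, 156 and 461 CPM.

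Some members lie in stretches of the genome where neighbouring genes shifted together between the groups. The 3 members on chromosome 10 are Cdk1 (chr10:69335146-69352938), Gas2l3 (chr10:89408823-89443967) and Tmpo (chr10:91147571-91181315, GRCm38). The running median over 25 neighbouring tested genes, without the gene itself, was 0.37, 0.64 and 0.61 higher in β1-K794Q-GFP cells on the log2 scale at these positions. With this regional level taken into the fit, the log2 fold change of Cdk1 went from 0.97 to 0.62, that of Gas2l3 from 0.94 to 0.31 and that of Tmpo from 0.60 to -0.01. On chromosome 1 the neighbours of Hjurp, Nuf2 and Lbr were lower in β1-K794Q-GFP cells by log2 differences of -0.55, -0.59 and -0.37. These 3 members went from -0.29 to 0.31, from -0.51 to 0.11 and from -0.27 to 0.11. The other members there, Cenpf and Nek2, had neighbours at -0.04 and 0.20. Elsewhere, 2 members had neighbours shifted by at least 0.3 in size. These were Aurkb on chromosome 11, with neighbours at 0.34 and a log2 fold change that went from 0.03 to -0.33, and Ckap2l on chromosome 2, with neighbours at 0.32 and a log2 fold change that went from 0.34 to 0.02. In that fit Gas2l3 had an unadjusted p of 0.219, while Gtse1 on chromosome 15 and Psrc1 on chromosome 3 remained called, at 2.61 and 3.29.

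**Figure D4:**
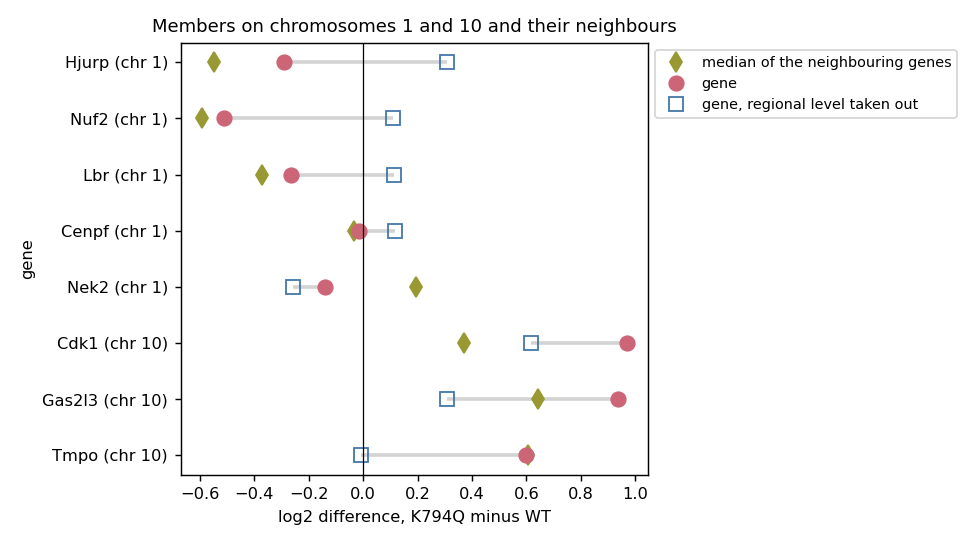
Log2 difference between β1-K794Q-GFP and β1-WT-GFP cells for the 8 members on chromosomes 1 and 10 (circles), for the median of their neighbouring tested genes (diamonds) and for the member with the regional level taken out (squares). The squares of Tmpo, Nuf2 and Lbr lie near 0, that of Gas2l3 moves to 0.31 and that of Cdk1 to 0.62.

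The wider machinery was read from 142 further genes of G2 and M phase in 6 lists, all found and tested, 7 of them under an older symbol. Of these, 3 were called, all higher in β1-K794Q-GFP cells (3.48% of all genes were), and without WT C 22 were, again all higher (5.99% of all genes in that fit). Their median log2 fold change was 0.08, and 0.57 without that culture. The 36 genes of the spindle checkpoint and kinetochore and the 34 other motor, spindle, centrosome and cytokinesis genes showed the members' culture pattern. WT C was above WT A and WT B for 34 of the 36 and 33 of the 34, by median folds of 2.51 and 3.23 (5246 of all 11608 tested genes, median fold 1.00). With all 6 cultures 0 genes of either list were called (5 and 8 without culture C). The 17 APC/C subunits and inhibitors, most of which are made throughout the cycle, had a median fold of 1.22, and the 18 condensin, cohesin and separase genes 1.30.

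The called genes among these were Cdkn1a, Ccng1 and E2f1. Cdkn1a, the p21 inhibitor of cyclin-dependent kinases and a p53 target, was at 31.8, 35.5 and 46.9 CPM in β1-WT-GFP and at 394, 306 and 306 CPM in β1-K794Q-GFP cells. The groups were far apart, with a log2 fold change of 3.14 (SE 0.24, adjusted p 0.0198 by edgeR's test). Ccng1 (cyclin G1), another p53 target, was at 35.2, 36.6 and 44.4 CPM against 144, 190 and 190 CPM, a log2 fold change of 2.17 (SE 0.20, adjusted p 0.0336). In both genes the values within a group were close together, unlike those of the members. Both belong to the list of G2/M entry brakes and phosphatases. In it 2 of 16 genes were called, both higher (3.48% of all genes were). The list is not made of brakes alone, as it also holds the phosphatases Cdc25a and Cdc25b. Of these 16 genes, 8 had positive and 8 negative log2 fold changes, from -1.82 to 3.14. The part of p53 in these levels was not tested. Only called genes are named here as p53 targets, and the other genes of the list were not sorted by that trait. In that list Wee1, the kinase that holds Cdk1 inactive, stood at 7.96, 8.20 and 33.1 CPM against 30.3, 31.4 and 47.6 CPM and was not called. Gadd45a did not share the rise of Cdkn1a and Ccng1 in β1-K794Q-GFP cells. It stood at 77.4 CPM in WT C and at no more than 11.7 CPM elsewhere.

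Of the 21 regulators of G2/M transcription, 1 was called, near the share over all genes (5.19% called, 3.48% called as higher). E2f1 was at 13.3, 9.90 and 26.0 CPM against 42.4, 25 and 38.9 CPM, with a log2 fold change of 1.11 (SE 0.41, adjusted p 0.425 by edgeR's test), and with a culture removed it was called only without K794Q B or WT C, with values from 0.85 to 1.62 over the 6 fits. Foxm1 and Mybl2 (B-Myb), the activators of mitotic genes, followed the members. Foxm1 was at 50.4, 40.9 and 152 CPM against 60.5, 46.1 and 94.2 CPM, and Mybl2 at 6.30, 5.90 and 18.9 CPM against 11.8, 5.53 and 20.04 CPM. E2f7, a repressor of the E2F family, was at 14.7, 11.9 and 45.8 CPM against 76.5, 17.8 and 127 CPM, with K794Q B among the β1-WT-GFP values. E2f8, Rbl1 and Tfdp1 shared the low value of that culture. Lin9, a subunit of the MuvB core of the DREAM complex, was highest in WT C at 47.1 CPM and lay between 15 and 24.9 CPM elsewhere. The other MuvB subunits Lin37, Lin52, Lin54 and Rbbp4, the repressors E2f4, E2f5 and Rbl2, the NF-Y subunits Nfya, Nfyb and Nfyc, and E2f2, E2f3 and Tfdp2 stood out less in WT C than most members did. There they were at 0.53 times (Lin37) to 1.55 times (Lin54) their mean of WT A and WT B, a range that also held the member G2e3 (1.30 times). None of these regulators was called with all 6 cultures. Over all 21 regulators, WT C was above both WT A and WT B for 16, and its median fold over their mean was 1.43.

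How alike the members were was read from the correlation of each gene's log2 CPM with the mean of the centred members over the 6 cultures, given as a description. The points share their libraries, and each member is part of that mean. Pearson's r was over 0.9 for 33 members and over 0.8 for 45, with a median of 0.94. It was lowest for Gas2l3 (0.28), Psrc1 (0.58) and Gtse1 (0.64). Of the 9976 genes outside all lists with a mean of at least 5 CPM, the 10 most alike were 2810417H13Rik (now Pclaf, r = 0.996), Cdk5rap2, Farp2, 2700029M09Rik (now Hpf1), Hist1h3g (now H3c8), Mcm10, Mast2, Kirrel, Ndufb4 and Ctps (r = 0.983). Pclaf is a PCNA-binding protein of S phase, Mcm10 a replication factor and Cdk5rap2 a centrosomal protein. Pclaf stood at 17.3, 13.1 and 48.6 CPM against 25.4, 19.1 and 41.2 CPM. Ndufb4, a subunit of the respiratory chain, is among the 10 as well.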

How the data were processed

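RNA of 3 β1-WT-GFP and 3 β1-K794Q-GFP cultures of eEnd2 cells was sequenced, cleared of ribosomal RNA. The authors deposited raw read counts per mouse gene symbol, not normalized; the submitters' processing notes name bcl2fastq 2.20.0, STAR 2.7.4a, HTSeq 0.9.1, edgeR 3.38.4 and mm10. The table held 0 further columns. Of the sequencing runs described for these samples, the one behind the table is not named in the labels. Whether counting used strand is not given in the sources used here.

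The analysis used edgeR 4.0.16 in R 4.3.3: filterByExpr (11608 genes kept), TMM, and the quasi-likelihood F-test (two-sided) on all 6 cultures, as the study names it, with Benjamini-Hochberg adjustment over all genes tested. The fold and p thresholds for a call are those of the study's methods. The SE is the log2 fold change divided by the square root of F. Log2 levels used a pseudocount of 0.5 CPM. The members, roles and companion lists were chosen with earlier results of these data known and written from general knowledge, so lists received no test. All members are named by role; of the companion lists, the genes called and all transcription regulators; and the 10 genes of at least 5 CPM most correlated with the members. Fold changes are printed for members with p of at most 0.05, a log2 size of at least 0.5, a place on chromosome 1 or 10, neighbours shifted by at least 0.3, or a standard role (Cdk1, Ccnb1, Plk1, Cdc20, Top2a, Mki67). Wee1, Gadd45a and the examples given by level were chosen after their values were seen. Positions came from GENCODE M21 (GRCm38), which matched 21777 symbols directly and 1284 through a synonym; promoters came from RefSeq. Scripts were tested on simulated counts.

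The alternatives were no filter, at least 10 counts in every culture, RLE, library totals alone, DESeq2 1.42.0, the likelihood ratio test, the culture letter as a block, a regional offset over 25 neighbouring genes, and leaving out each culture. Python 3.11.15, pandas 2.3.3 and matplotlib 3.10.9 were used for tables and plots.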

Additional observations from a re-analysis of the deposited data

How the results depend on the processing

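The 2 called members, Gtse1 and Psrc1, were called under every alternative run. With DESeq2, 3 members had an adjusted p of at most 0.05 (Psrc1, Gtse1 and Gas2l3) and 5 companion genes were called (5.99% of all genes were); the likelihood ratio test gave 2 and 5 (6.26%). Leaving out each culture moved the members called from 2 to 14 (those called higher also from 2 to 14) and the members at an adjusted p of at most 0.05 from 0 to 1. It moved the companion genes called from 2 to 22 and the median log2 fold change from -0.32 to 0.86. The 1 member at that adjusted p was Psrc1, without K794Q B (1.05% of all genes in that fit), the β1-K794Q-GFP culture in which Psrc1 was lowest. The upper ends of the counts called and of the median came from leaving out WT C; without K794Q B 7 companion genes were called (7.95% of all genes). Over the 6 fits with a culture left out, 40 of the 52 members had fold changes of both signs. Among the members whose fold changes are printed they ran from -0.84 to 0.78 for Ccnb1, -1.08 to 0.41 for Ccnb2, -0.97 to 0.27 for Cks1b, -0.69 to 0.63 for Plk1, -0.39 to 0.96 for Aurkb, -0.59 to 0.82 for Nek2, -1.02 to 0.78 for Cdc20, -0.996 to 0.072 for Nuf2, -0.55 to 0.70 for Cenpf, -0.50 to 0.93 for Top2a and -0.32 to 1.01 for Mki67. With library totals alone Cenpf stood at 0.030. With the regional offset Nuf2 was at 0.11, Cenpf at 0.12, Hjurp at 0.31, Lbr at 0.11, Aurkb at -0.33 and Tmpo at -0.0094. Ckap2 was also called with DESeq2, the likelihood ratio test and the block, and the cause of these changes was not tested. No filter, the stricter filter and RLE changed no count of calls or sign printed here. A promoter window from 150 bases before the start held the CHR element in 75.6%, CCAAT boxes in 75.6% and the E2F letters in 2.22% of the members.

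The letters A, B and C are shared by the groups, but same-letter cultures deviated together with correlations of only 0.0550 to 0.109, so the letters were not taken as pairs. The members' mean centred log2 levels did fall in the order C, A, B in both groups. They were 0.93, -0.57 and -0.76 in β1-WT-GFP and 0.68, 0.08 and -0.36 in β1-K794Q-GFP cultures. With the culture letter as a block, 4 members were called (all 4 higher: Gtse1, Psrc1, Ckap2 and Cdk1) and 6 companion genes (4.92% of all genes in either direction and 3.2% as higher), Nek2 stood at 0.075 and Cenpf at 0.053, and 4 of the 6 cultures correlated best with their own letter, a hint from the data and not from the design.

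The lowest member count in a culture was 17, for Psrc1. With 3 cultures per group the exact permutation test cannot give less than p = 0.1.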
